A study of Mus musculus with 2 samples.

Results

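The 10 genes described here encode the WNK kinase pathway of renal salt handling: the kinases Wnk1, Wnk2, Wnk3 and Wnk4, their substrate kinases Stk39 (SPAK) and Oxsr1 (OSR1), the ubiquitin ligase subunits Klhl3 and Cul3, and Sgk1 and Nedd4l. They were chosen by gene symbol, with earlier results of these data known. All 10 of 10 were found among the 30744 gene symbols of the deposited table, each as a single gene model. The data are 2 total RNA-seq libraries from mouse kidney, with 1 library per group. The normal library came from an animal with a C57BL/6 x DBA/2 F1 strain background and genotype WT that did not receive doxycycline. The tumour library came from a kidney tumour on the same strain background with the genotype Tet-OSKM/mPer2-luc after doxycycline, which switches on the reprogramming factors Oct4, Sox2, Klf4 and c-Myc. The mPer2-luc allele reports activity of the clock gene Per2 as light. Per the labels' protocols, embryonic stem cells with these transgenes were injected into hybrid blastocysts, so the animals are chimeras that also hold host cells. The same protocol stands with both libraries, and age, sex and time of day at collection are not given in the sources used here. With 1 library per group there is no replicate check, so every value below compares these 2 libraries and not the conditions.

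WNK kinases are large serine-threonine kinases that sense chloride and potassium in the distal nephron. They phosphorylate SPAK and OSR1, which then phosphorylate and activate the sodium-chloride cotransporters NCC (Slc12a3), NKCC2 (Slc12a1) and NKCC1 (Slc12a2) and inhibit the potassium-chloride cotransporters. KLHL3 brings WNK kinases to the cullin 3 ligase for degradation, and mutations in WNK1, WNK4, KLHL3 or CUL3 cause familial hyperkalaemic hypertension. SGK1, a kinase induced by aldosterone, phosphorylates the ubiquitin ligase NEDD4L and so keeps the epithelial sodium channel at the membrane.

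In the tumour library the WNK family had another make-up than in the normal kidney. Wnk4 and Klhl3, which are enriched in the distal nephron, were 22.03-fold and 14.4-fold lower, and Nedd4l and Sgk1 were 5.002-fold and 2.56-fold lower. Wnk3 and Wnk2, low in the normal kidney, were 53.5-fold and 5.80-fold higher. Wnk1, Stk39, Oxsr1 and Cul3 differed by less than 2-fold. A ratio is the tumour count over the normal count after TMM scaling of the library sizes, and a gene was called where the libraries differed by 2-fold or more and the exact 95% counting interval of the ratio excluded 1. By that rule 2 of 10 members were higher, 4 lower and 4 neither. Among all 16326 genes with at least 20 reads over both libraries, 59.2% were called, 31.2% higher and 28.0% lower, so a call by itself does not set a member apart. Of these calls 52.8% were higher, against 67.6% when counts were scaled by counted reads without TMM. At 4-fold 2 members were higher and 3 lower, against 34.3% of measured genes called, 18.5% higher and 15.8% lower. The median log2 ratio of the members was -0.48, against 0.08 over all measured genes.

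Markers of nephron segments moved with Wnk4, Klhl3, Nedd4l and Sgk1. Levels are given in CPM, reads scaled to the TMM-adjusted library size. The summed level of 4 distal convoluted tubule markers was 1277 CPM in normal kidney and 15.2 CPM in tumour, or 83.9-fold lower, and all 4 were lower, with Pvalb at 0 reads in the tumour. Thick ascending limb markers were 151-fold lower in sum (4 of 4), principal cell markers 13.2-fold (5 of 5), intercalated cell markers 22.7-fold (5 of 5) and proximal tubule markers 25.5-fold (5 of 5). Sums and medians differ where a few genes carry the sum. The median log2 ratio was -9.14 for the proximal tubule list and -5.32 for the principal cell list. In the tumour Lrp2 (610 CPM) and Cubn (210 CPM) made up most of the 827 CPM of the proximal tubule list, and Aqp3 (15.4 CPM) most of the principal cell list (these genes were picked out after their values were seen). Of 6 neuronal markers all 6 were higher, with sums of 13.9 and 125 CPM, and Tubb3, Elavl4 and Snap25 were at 0 in the normal library. All 5 pluripotent cell markers were higher, summing to 0.0829 CPM in normal kidney, where Zfp42, Dppa5a and Utf1 were at 0, and to 1023 CPM in tumour. Podocyte markers stood at 329 and 211 CPM (2 of 4 lower, none higher) and endothelial markers at 323 and 99.9 CPM (2 of 4 lower, none higher). Smooth muscle and fibroblast markers stood at 178 and 313 CPM, with 1 of 5 higher (Col1a1, at 9.99 and 175 CPM), 1 lower (Myh11) and 3 neither. Macrophage and leukocyte markers stood at 78.5 and 90.3 CPM (2 of 4 higher, none lower). The background for these marker counts is 28.0% of measured genes called lower and 31.2% called higher. The segment lists hold genes described again below as pathway genes, namely Slc12a1, Slc12a3, Scnn1b, Scnn1g and Avpr2. The part of these cell types in the values of the 10 genes was not tested, and in bulk tissue fewer cells of a type and less RNA per cell cannot be told apart.

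Stretches of 250 bases upstream of RefSeq start sites (GRCm38.p6, the assembly of mm10) show how differently the start regions of these genes are built. Windows were available for 9 of the 10 members, all but Nedd4l. The 3 kinase genes shown are the most abundant WNK gene and the WNK genes with the largest difference in each direction. For Wnk1 (chr6:120038656-120038905, minus strand) and Wnk4 (chr11:101260317-101260566, plus strand) capitals mark the GC box GGGCGG on either strand. For Wnk3 (chrX:151197828-151198077, plus strand) they mark the TATA box TATAAA, which begins 33 bases before the start site. For Sgk1 the window shown (chr10:21993640-21993889, plus strand) holds the palindromic glucocorticoid response element in capitals, 189 bases before its start site. That start site lies 111706 bases from the start of the deposited Sgk1 model.
Wnk1: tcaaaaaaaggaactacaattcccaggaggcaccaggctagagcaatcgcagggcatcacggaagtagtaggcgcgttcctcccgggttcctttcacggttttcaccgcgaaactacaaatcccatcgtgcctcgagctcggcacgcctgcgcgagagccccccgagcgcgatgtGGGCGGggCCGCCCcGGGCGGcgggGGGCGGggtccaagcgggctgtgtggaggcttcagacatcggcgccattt
Wnk4: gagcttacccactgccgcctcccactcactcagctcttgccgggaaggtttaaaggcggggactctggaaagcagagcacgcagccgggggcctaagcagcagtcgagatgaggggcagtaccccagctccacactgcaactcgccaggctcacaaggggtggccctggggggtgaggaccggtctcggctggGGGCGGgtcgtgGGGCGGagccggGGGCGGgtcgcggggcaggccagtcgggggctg
Wnk3: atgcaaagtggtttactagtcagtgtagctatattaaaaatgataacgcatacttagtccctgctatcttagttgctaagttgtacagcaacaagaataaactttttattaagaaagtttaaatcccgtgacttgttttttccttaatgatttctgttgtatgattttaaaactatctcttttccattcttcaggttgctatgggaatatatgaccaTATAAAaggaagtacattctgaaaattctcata
Sgk1: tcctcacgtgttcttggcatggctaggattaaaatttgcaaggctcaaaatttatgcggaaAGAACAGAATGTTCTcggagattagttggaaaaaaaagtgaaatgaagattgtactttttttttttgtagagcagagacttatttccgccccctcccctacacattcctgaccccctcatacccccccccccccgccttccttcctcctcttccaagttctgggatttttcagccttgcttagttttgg

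The Wnk1 window held 4 GC boxes and had a GC content of 64.0%, and the Wnk4 window held 3 at 70.0%. The Wnk3 window held no GC box at a GC content of 30.4%, below the lower quartile of 45.2% over 32851 windows of all genes. GC boxes on either strand were in 32.7% of those windows, and the TATA box in 12.4%. The ratio of observed to expected CpG dinucleotides was 1.02 for Wnk1, 1.01 for Stk39, 0.875 for Oxsr1 and 1.11 for Cul3, all above the upper quartile of 0.723 over all windows. These are the 4 members not called with TMM scaling, but Oxsr1 was called under 4 of 7 other settings. Nedd4l, a called member, had no window and so no CpG ratio. Of the members with a lower CpG ratio, Sgk1 lost its call under 2 of the 7 and Wnk2 under 1. In the window nearest to the deposited start the ratio was 0.302 for Wnk2, 0.346 for Wnk3 and 0.571 for Wnk4. It was 0.339 for Klhl3 and 0.176 for Sgk1, and in the Sgk1 window printed above it was 0.415. The Sgk1 window at chr10:21994416-21994665 had 0.710, close to the upper quartile of 0.723. The Klhl3 window lies 11219 bases from the start of the deposited Klhl3 model. For the Cul3, Klhl3 and Wnk2 windows the bases after the start site were not found near the start of a GENCODE M21 transcript. Their ratios may therefore not describe the start region in use. The glucocorticoid palindrome occurred in 3 of the 32851 windows (0.00913%), upstream of Sgk1, Acnat2 and Gm35041. Sgk1 has 6 RefSeq start windows, of which 1 holds the palindrome. The E-box CACGTG, the element that clock factors bind, occurred in 1 of the 14 member windows, the Sgk1 window printed above, and in 6.02% of all windows. A match is a run of letters and does not show that a factor binds there.

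Levels of genes can be compared only per length, for which the deposited RPKM values (reads scaled to transcript length and library total) were used. In the normal kidney Sgk1 was the most abundant member at 59.1 RPKM, followed by Cul3 at 35.9 and Wnk1 at 33.2 RPKM. Oxsr1, Klhl3, Nedd4l, Stk39 and Wnk4 lay close together between 9.88 and 8.44 RPKM, and each of these neighbours overlapped the next within the counting interval. Wnk2 and Wnk3 followed at 0.143 and 0.0930 RPKM, again with overlapping intervals. In the tumour the order was Cul3 (39.4 RPKM), Sgk1 (29.4), Wnk1 (25.4), Oxsr1 (22.2), Stk39 (13.2), Wnk3 (6.36), Nedd4l (2.29), Wnk2 (1.06), Klhl3 (0.823) and Wnk4 (0.489 RPKM). There only Wnk2 and Klhl3 overlapped as neighbours. Wnk4 thus moved from the eighth place to the last, and Wnk3 from the last to the sixth.

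**Figure D1:**
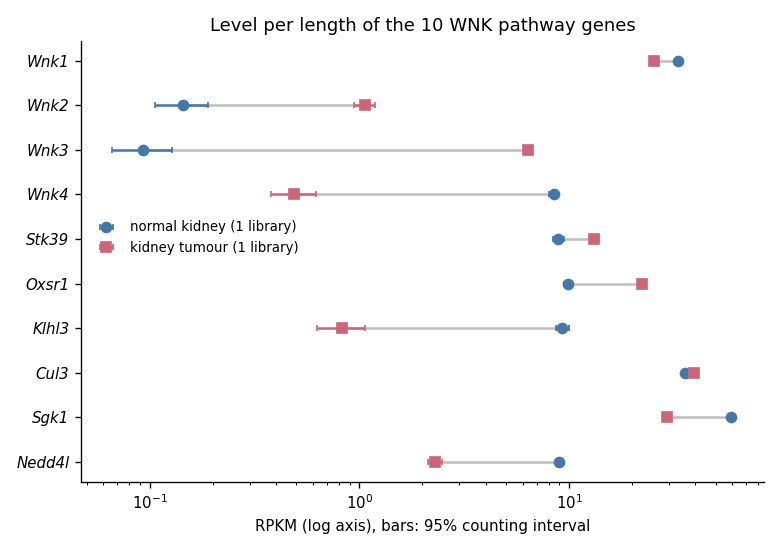
Level per length of the 10 genes in each library, in RPKM on a log axis, with 95% counting intervals as bars and a line joining the 2 libraries. Wnk4, Klhl3 and Nedd4l lie to the left in the tumour library, Wnk2 and Wnk3 to the right, and Cul3 (35.9 and 39.4 RPKM) nearly in place.

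The WNK kinases head the pathway. Wnk1 (chromosome 6, 119923969 to 120038655, minus strand of mm10), the broadly expressed family member, counted 15160 reads in normal kidney and 9517 in tumour. That is 629 and 376 CPM and a ratio of 0.599 (0.584 to 0.614), lower in the tumour but short of 2-fold. Wnk1 also makes a short kidney-specific form without an active kinase domain from a start inside the gene. The single count per gene does not tell this form from the full kinase. Wnk4 (chromosome 11, 101260567 to 101277409, plus strand), the kinase best known from the distal convoluted tubule, had 1408 and 67 reads, or 58.4 and 2.65 CPM. It was 22.03-fold lower in the tumour (interval 17.2 to 28.6), and 4.23% of measured genes had a lower ratio.

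Wnk3 (chromosome X, 151198078 to 151320192, plus strand), a kinase known mainly from brain, counted 39 reads in normal kidney and 2188 in tumour, or 1.62 and 86.6 CPM. It was 53.5-fold higher (39.02 to 75.5), and 96.7% of measured genes had a lower ratio. Wnk2 (chromosome 13, 49037601 to 49148328, minus strand), likewise known from brain, had 49 and 298 reads, or 2.03 and 11.8 CPM, and was 5.80-fold higher (4.28 to 8.02). The normal levels of both rest on fewer than 50 reads, which widens their intervals. An antisense model, A230072E10Rik, lies over Wnk3 and shares 523 exonic bases with it in GENCODE M21. It counted 24 reads in normal kidney and 15 in tumour, and no source used here gives the strand setting of the counting, so reads of this pair cannot be told apart.

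As shares of the summed RPKM of the 4 WNK genes, Wnk1 made up 79.3% in normal kidney and 76.2% in tumour. Wnk4 had 20.2% in the normal kidney and 1.47% in the tumour, while Wnk3 had 0.222% and 19.1%. Wnk2 went from 0.343% to 3.19%. Wnk3 therefore stood in the tumour about where Wnk4 stood in the normal kidney, while Wnk1 remained the most abundant of the 4. A ratio of 2 genes within a library does not depend on how libraries are scaled. Wnk4 per Wnk1, per length, was 0.254 in normal kidney and 0.0193 in tumour, or 13.2-fold lower (exact 95% interval 10.3 to 17.1). Wnk3 per Wnk1 was 0.00280 and 0.250, 89.4-fold higher (65.1 to 126), and Wnk2 per Wnk1 was 9.69-fold higher (7.13 to 13.4).

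**Figure D2:**
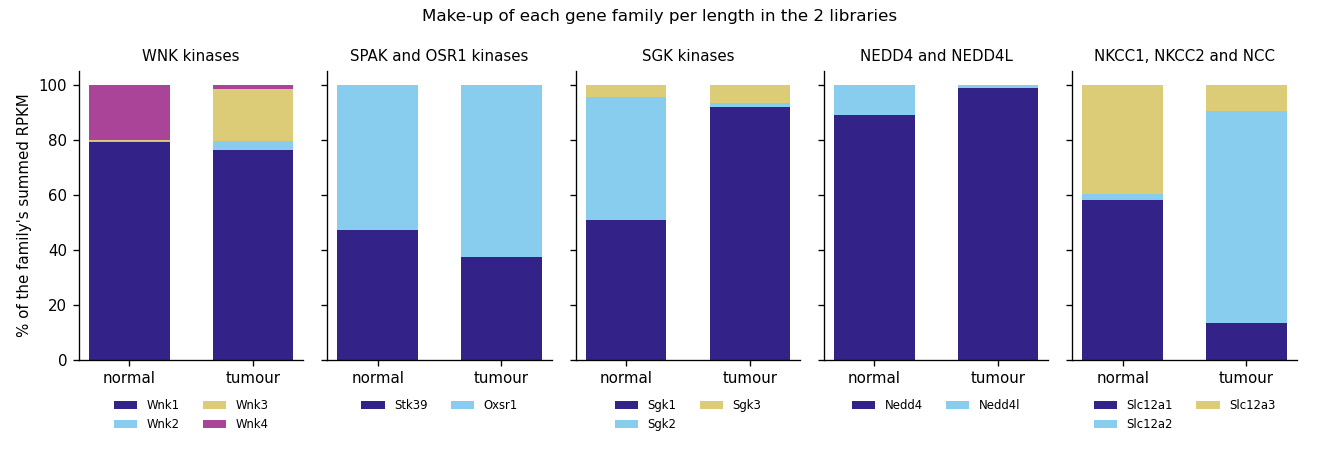
Share of each gene in the summed RPKM of its family, in percent, for the normal and the tumour library. In the first panel Wnk4 holds 20.2% in the normal library and Wnk3 19.1% in the tumour library. In the last panel Slc12a2 holds 2.35% and 77.1%.

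The substrate kinases were not called, and both had ratios above 1. Stk39 (chromosome 2, 68210447 to 68471981, minus strand) had 1161 and 1417 reads, or 48.1 and 56.1 CPM, a ratio of 1.16 (1.08 to 1.26). Oxsr1 (chromosome 9, 119238433 to 119322427, minus strand) had 1848 and 3407 reads, or 76.6 and 135 CPM, a ratio of 1.76 (1.66 to 1.86). Oxsr1 passed 2-fold when counts were scaled by counted reads (plain CPM), by the header totals or as RPKM plus 0.1, at log2 ratios of 1.37, 1.17 and 1.16 against 0.81. Stk39 and Oxsr1 were close per length in the normal kidney, 8.90 and 9.88 RPKM, and further apart in the tumour, 13.2 and 22.2 RPKM. Within the libraries Stk39 per Oxsr1 was 0.900 and 0.596, 1.51-fold lower in the tumour (1.37 to 1.66). SPAK is the more prominent of the pair in the distal convoluted tubule, and OSR1 is made in most tissues.

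The ligase subunits differed from each other. Klhl3 (chromosome 13, 58004957 to 58102428, minus strand), the substrate adaptor for WNK kinases, had 798 and 58 reads, or 33.1 and 2.29 CPM, and was 14.4-fold lower in the tumour (11.04 to 19.2). Its deposited model covers 2125 bases, 29.0% of the merged exons of Klhl3 in GENCODE M21, so most of the gene's annotated exon length was not counted. Cul3 (chromosome 1, 80266818 to 80340430, minus strand), the scaffold that serves many adaptors, had 3984 and 3595 reads, or 165 and 142 CPM, a ratio of 0.861 (0.823 to 0.901). The direction for Cul3 depended on the scaling, with log2 ratios of -0.22 with TMM and 0.34 with plain CPM. Klhl3 per Cul3 was 12.4-fold lower in the tumour (9.46 to 16.6). Per Klhl2, the other adaptor that targets WNK kinases, Klhl3 was 0.796 in normal kidney and 0.113 in tumour, or 7.02-fold lower (5.29 to 9.46). Wnk4 and its adaptor Klhl3 had ratios of like size, and Wnk4 per Klhl3 was 1.53-fold lower in the tumour with an interval that nearly reached 1 (1.04 to 2.23).

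Sgk1 and Nedd4l, the pair that controls the sodium channel, were both lower. Sgk1 (chromosome 10, 21882184 to 21999902, plus strand) had 7378 and 3019 reads, or 306 and 119 CPM, and was 2.56-fold lower (2.46 to 2.67). Scaled as plain CPM, Sgk1 missed 2-fold at a log2 ratio of -0.80, against -1.36 with TMM. Nedd4l (chromosome 18, 64887756 to 65217826, plus strand) had 2949 and 618 reads, or 122 and 24.4 CPM, and was 5.002-fold lower (4.58 to 5.46). Sgk1 per Nedd4l was 6.58 in normal kidney and 12.9 in tumour, or 1.95-fold higher (1.77 to 2.15). Nedd4, the close paralog of Nedd4l, was 2.23-fold higher in the tumour (2.19 to 2.27), at 72.8 and 207 RPKM. Nedd4l per Nedd4 was accordingly 11.2-fold lower (10.2 to 12.2), and Nedd4l made up 10.98% of their summed RPKM in normal kidney and 1.09% in tumour. Of the SGK kinases, Sgk2 was 136-fold lower (100.01 to 190), at 51.8 and 0.487 RPKM, and Sgk3 3.19-fold lower (2.83 to 3.59). Sgk1 thereby held 50.9% of the summed SGK RPKM in the normal kidney and 92.0% in the tumour, although its own level was lower, and Sgk1 per Sgk3 was 1.24-fold higher (1.10 to 1.41).

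**Figure D3:**
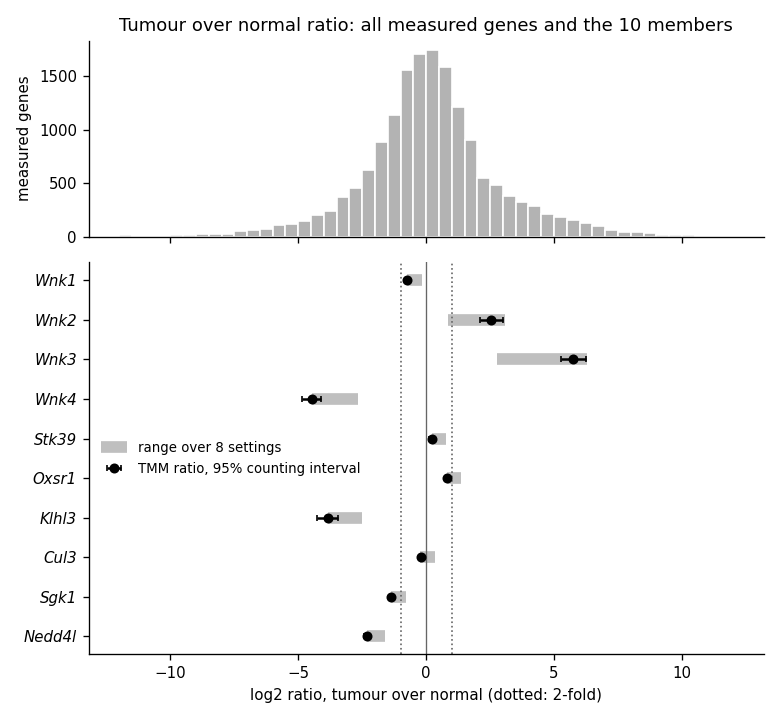
Number of measured genes by log2 ratio, tumour over normal, in bins of 0.5 (top), and the ratio of each of the 10 genes with its 95% counting interval and the grey range over 8 settings of scaling, pseudocount and row choice (bottom). Dotted lines mark 2-fold. Wnk4 at -4.46 and Wnk3 at 5.74 lie in the tails, and the 4 uncalled genes lie near the centre.

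Downstream of the kinases, the cotransporters that reabsorb salt in the thick ascending limb and distal convoluted tubule were lower by over 100-fold, and NKCC1 was not called. Of 7 cation-chloride cotransporters 4 had a lower call, none a higher one and 3 no call (median log2 ratio -1.31). Among all measured genes 28.0% were called lower and 31.2% higher. Slc12a1 (NKCC2), of the thick ascending limb, was 132-fold lower (119 to 148), and Slc12a3 (NCC), of the distal convoluted tubule, 129-fold lower (111 to 151). The potassium-chloride cotransporter Slc12a7 was 2.48-fold lower (2.35 to 2.61). Slc12a2 (NKCC1), which most cells make, had 2417 and 2705 reads and a ratio of 1.07 (1.01 to 1.13). NKCC1 held 2.35% of the summed RPKM of NKCC1, NKCC2 and NCC in the normal kidney and 77.1% in the tumour. Slc12a3 per Slc12a2 was 138-fold lower (117 to 163).

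Slc12a3 and Slc12a1 had lower ratios than Wnk4 and Stk39, the kinases they were paired with. This does not hold for all cotransporters, as Slc12a2 had a ratio of 1.07 and Wnk4 one of 0.0454. Slc12a3 per Wnk4 was 18.4 in normal kidney and 3.14 in tumour, or 5.85-fold lower (4.31 to 7.85). Slc12a1 per Stk39 was 154-fold lower (135 to 176), as Stk39 itself had a ratio of 1.16. All 13 pairs, chosen with earlier results of these data known, had intervals that excluded 1. Counting error is the only error they cover, and the share over other gene pairs was not computed.

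**Figure D4:**
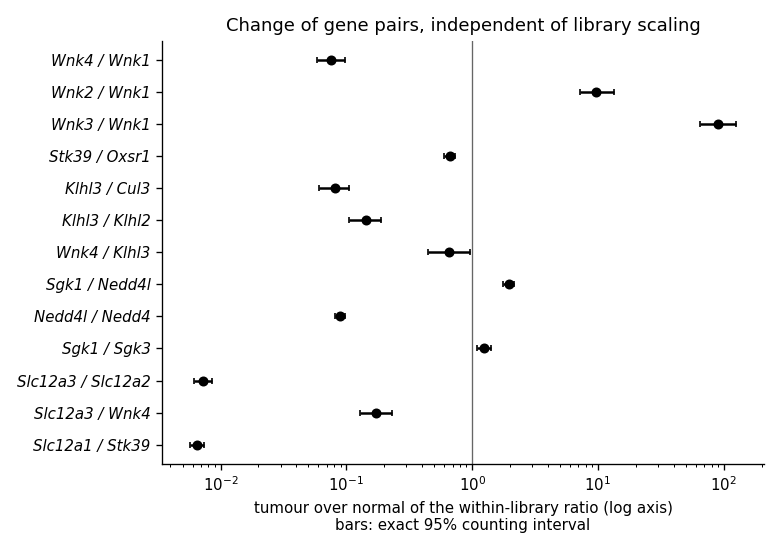
Tumour over normal of the ratio of 2 genes within a library, on a log axis, for 13 pairs with exact 95% counting intervals. Wnk3 per Wnk1 lies at 89.4, Slc12a3 per Slc12a2 and Slc12a1 per Stk39 below 0.01, and Wnk4 per Klhl3 and Stk39 per Oxsr1 at 0.655 and 0.662.

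The genes of the sodium channel arm and of the distal conductances were called lower. All 6 genes of the epithelial sodium channel and its proteases were lower, with a median of -4.27, among them the subunits Scnn1g at 50.8-fold (34.2 to 78.8) and Scnn1b at 28.8-fold (21.0 to 40.8). All 10 genes of distal potassium and chloride channels and the sodium pump were lower, with a median of -5.27 (9 of 10 with RPKM plus 1). Bsnd (barttin, a chloride channel subunit) had 1625 and 9 reads and was 189-fold lower (99.5 to 415), and Fxyd2, a regulator of the sodium pump, 96.1-fold lower (86.4 to 107). All 8 hormone and calcium receptors and related genes upstream were lower, with a median of -3.47. Here the vasopressin receptor Avpr2 was 39.9-fold lower, at 419 and 11 reads, and the calcium-sensing receptor Casr had 2922 and 93 reads, a log2 ratio of -5.04. For all 3 lists the count is larger than the 28.0% of measured genes called lower would give, but the lists hold nephron genes by choice.

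Most genes of the cofactors and of the shared ligase machinery were not called. Of 7 WNK and SPAK cofactors 2 had a lower call and 5 none (median -0.68), a share near the 28.0% of measured genes called lower. The lower ones were the pseudokinase Nrbp2, 4.02-fold (3.36 to 4.82), and Cab39l, a scaffold that activates SPAK and OSR1, 3.21-fold (2.95 to 3.49). Of 17 genes of cullin 3 adaptors, neddylation and the COP9 signalosome, 14 had no call, 2 a higher and 1 a lower one (median 0.30), against 59.2% of measured genes called. The higher ones were the signalosome subunit Cops7b, 2.23-fold (1.94 to 2.57), and Cand1, the exchange factor of cullin adaptors, 2.09-fold (2.01 to 2.17), and the lower one was Klhl2, 2.05-fold (1.88 to 2.24). Klhl2 missed 2-fold as plain CPM, by header totals and as RPKM plus 0.1 or 1 (log2 ratios of -0.48, -0.68, -0.68 and -0.62).

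Of 10 genes of SGK1 activation and paralogs 4 had a lower call, 1 a higher one and 5 none (median -0.58). Mtor, the kinase of the complex that phosphorylates SGK1, was 5.02-fold lower (4.83 to 5.23), whereas Rictor, which defines that complex, had a ratio of 1.36 (1.29 to 1.44). Of 6 phosphatase genes 2 had a lower call, 1 a higher one and 3 none (median -0.11 with TMM, 0.45 with plain CPM). Ppp1r1a, an inhibitor of protein phosphatase 1 that is made in the distal convoluted tubule, was 5.97-fold lower (5.42 to 6.58), and the calcineurin subunit Ppp3ca 2.07-fold lower (1.90 to 2.25), the last short of 2-fold as plain CPM (log2 ratio -0.49), by header totals (-0.69) and as RPKM plus 0.1 or 1 (-0.68 and -0.60). The catalytic subunit Ppp4c was 3.84-fold higher (3.57 to 4.14). Over all 71 other pathway genes 37 had a lower call, 4 a higher one and 30 none (median -1.05). This count includes the sodium channel, distal channel and receptor lists, in which all genes were lower. For each of these counts the background is 28.0% of measured genes called lower and 31.2% called higher.

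**Figure D5:**
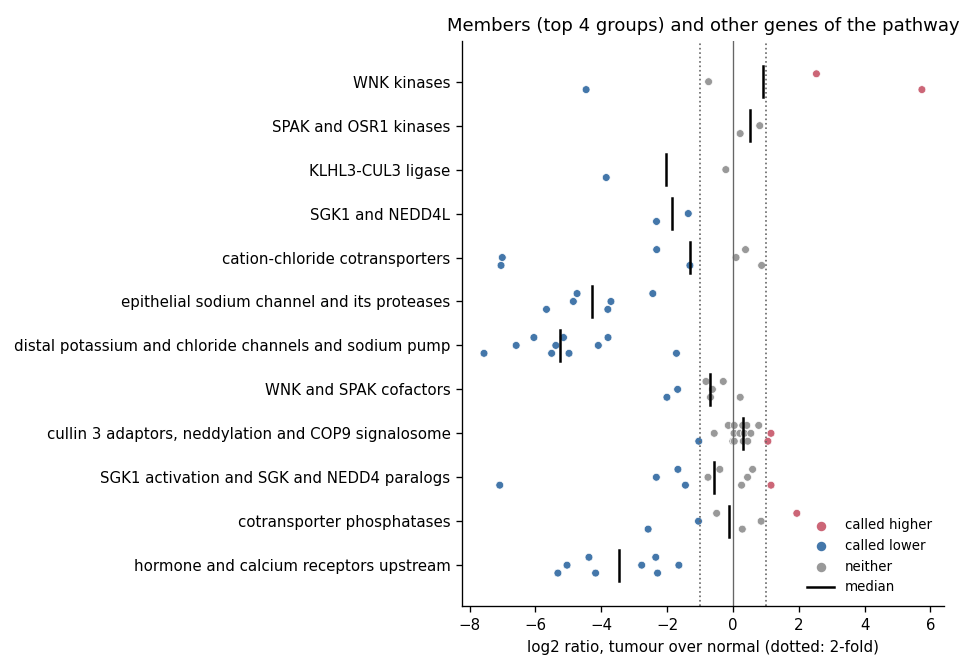
Log2 ratio, tumour over normal, of the 10 members (top 4 groups) and of 8 lists of other pathway genes. Each point is a gene, coloured by its call, and black bars are list medians. All genes of the sodium channel, distal channel and receptor lists lie left of the dotted 2-fold line, with medians of -4.27, -5.27 and -3.47, and the cullin list has its median at 0.30.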

How the data were processed

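Ribosomal RNA was removed from total RNA before stranded library construction, per the labels' protocols. Per the submitters' processing notes, HOMER, STAR 2.5.0c, bcl2fastq and the mm10 build were used, in roles that are not stated. The deposited tables hold integer counts of exonic reads for 32958 UCSC gene models and RPKM values, which matched counts scaled by model length and header total (largest difference 1.80e-06). Header totals were 40408775 reads (normal) and 33169818 (tumour), of which 72.4% and 62.8% were counted. The treatment of multi-mapping reads and of strand: not given in the sources used here. The GENCODE M21 transcript closest to each deposited model was searched for 50-base stretches that occur in another gene. For 7 members none did, and 0.235% (Klhl3), 0.164% (Sgk1) and 0.116% (Nedd4l) did. Transcript and deposited model differ in length, most for Klhl3 (6871 and 2125 bases), Wnk2 (6534 and 8455) and Wnk3 (8551 and 10378). Counted bases outside these transcripts were not checked.

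Of several models per symbol (708 symbols) the one with most reads was kept. TMM factors (edgeR 4.0.16, R 4.3.3) were 0.824 and 1.21. Ratios carry exact conditional (Clopper-Pearson) 95% intervals, gene pairs exact conditional odds ratio intervals and RPKM levels exact Poisson intervals. These intervals hold counting error alone, as each group has 1 library. PCR copies carry no molecular identifiers, so the intervals may be too narrow even for that error. No p-value was computed with 1 library per group. Calls were tested on simulated Poisson counts, which hold no variation beyond counting error and no TMM step. Python 3.11.15, numpy 2.4.6, pandas 2.3.3, scipy 1.17.1 and matplotlib 3.10.9 were used. Alternatives were plain CPM, header totals, DESeq2 1.42.0 size factors, TMM without mitochondrial models and Rn45s, RPKM plus 0.1 or 1, summed rows, other read minimums (1 and 100) and call folds of 1.5 and 4.

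Named genes are the 10 members, both genes of each pair and, per pathway list, the 2 largest ratios in the direction of the median and the largest called one the other way. Others were added to complete small counts. The members, lists and pairs were chosen with earlier results of these data known, and start regions, motifs and the CpG measure were chosen after values had been seen. The value of 1 gene counted in a list is not reported here.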

Additional observations from a re-analysis of the deposited data

How the results depend on the processing

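No paired analysis was possible because each group has 1 library and the labels give no replicate numbers, and none could be left out. Another scaling moved the median of all genes up, on the log2 scale, by 0.56 (plain CPM), 0.35 (header totals), 0.32 (RPKM plus 0.1) and 0.16 (RPKM plus 1), and the share of calls that were higher from 52.8% to 67.6%, 62.5%, 62.6% and 59.2%. The 10 genes kept their direction under all 7 other settings of scaling, pseudocount and row choice except Cul3. The calls of Wnk3, Wnk4, Klhl3 and Nedd4l held under all 7, but the sizes of their ratios did not. Their log2 ratios ranged from 2.75 to 6.30 for Wnk3 and from -4.47 to -2.66 for Wnk4. The range was -3.86 to -2.50 for Klhl3 and -2.33 to -1.60 for Nedd4l. Oxsr1 passed 2-fold with plain CPM, header totals, RPKM plus 0.1 and RPKM plus 1 (log2 ratios of 1.37, 1.17, 1.16 and 1.09). Sgk1 fell short of it with plain CPM (-0.80) and RPKM plus 1 (-0.98), and Wnk2 with RPKM plus 1 (0.85), where the pseudocount outweighs its normal level. Between 2 and 3 members were called higher and between 3 and 5 lower over these settings and call folds of 1.5 and 4.

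In the lists, plain CPM gave 1 higher cotransporter, 5 higher and 0 lower genes of the cullin 3 list, 3 higher genes of SGK1 activation, 2 higher and 1 lower phosphatase genes and 11 higher pathway genes in all. Header totals gave 1 higher cotransporter, 0 lower cullin 3 genes, 2 higher and 1 lower phosphatase genes and 7 higher pathway genes in all. Both RPKM settings gave 0 lower cullin 3 genes and 2 higher and 1 lower phosphatase genes. RPKM plus 1 called 2757 of all measured genes lower, against 4566. Leaving mitochondrial models and Rn45s out of TMM changed no call of the 10 genes. Depth limits Wnk2 and Wnk3 in the normal library (49 and 39 reads) and Wnk4 and Klhl3 in the tumour (67 and 58 reads).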

Other observations

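The families around Klhl3, Nedd4l, Cul3 and the pair Stk39 and Oxsr1 were looked at after the values of the 10 genes had been seen. Of 28 measured genes with a symbol of Klhl and a number, 8 had a lower call, 2 a higher one and 18 none (median log2 ratio -0.43), where 28.0% of all measured genes were called lower and 31.2% higher. Klhl3 had the lowest log2 ratio of these 28, at -3.85, followed by Klhl36 at -2.24 and Klhl5 at -1.87. At the other end Klhl23 had 50 and 720 reads and a log2 ratio of 3.78, and Klhl13 was the other higher gene, at 1.60. Of 8 cullins Cul4b and Cul7 were higher (1.44 and 1.56), Cul9 was lower (-2.87) and 5 were neither, Cul3 among them. Stk39 and Oxsr1 belong to the STE20 kinases. Of 27 measured genes of its Stk, Map4k, Pak and Taok groups, 7 had a higher call, 4 a lower one and 16 none (median 0.40).

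Of the 9 ubiquitin ligases of the NEDD4 family, Wwp1 and Nedd4l were lower by like amounts, 5.10-fold and 5.002-fold. Hecw2 and Itch were lower by 2.20-fold and 2.10-fold. Nedd4 was higher, and Hecw1 counted 0 reads in normal kidney and 125 in tumour. Nedd4 stood at 666 and 1486 CPM. Wwp2, Smurf1 and Smurf2 had no call. The family thus had 4 lower calls, 2 higher ones and 3 genes with none, where 59.2% of all measured genes were called.

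Of 5044 measured genes whose start window had an observed to expected CpG ratio of at least 0.75, 51.2% were called, and of 6576 with a lower ratio 63.6%. Both shares are descriptions without a test, and the split at 0.75 was set after the members' values were seen. Members fall on both sides of it, and which of them are called depends on the scaling for Oxsr1, Sgk1 and Wnk2.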
